A study of Mus musculus with 173 samples.

Results

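The genes described here are the translation initiation factors and translation elongation factors of single cells from the dentate gyrus of adult mice. They were taken from the deposited expression table as the rows whose symbol begins with Eif or Eef followed by a digit and whose level reached 1 TPM in at least 5% of libraries. TPM takes the reads of a gene, divides them by its transcript length and scales each library to a common total, so it compares genes per length. All 67 symbols of that form passed, among 23307 genes in the table and 12007 that passed the same filter. Eif4ebp2 passed with the fewest libraries, 9 of 172 (5.23%), followed by Eif4e1b with 11 (6.40%), and no member lay below the threshold.

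The libraries are total RNA from single cells of the dentate gyrus of the hippocampus of C57BL/6 mice aged 8 to 12 weeks. Their titles carry the letters C, R and N, which the labels do not spell out. Of the 172 libraries, those not named R (4) or N (26) are C. The labels give no genotype, treatment, sex or animal, and the study is described as one of quiescent neural stem cells and their immediate progeny. A row for a cyan fluorescent protein in the table was part of the expression reference, and 4 C libraries were below 1000 TPM for it. Because no animal is named, each class is 1 sample in the sense of a test. Differences are therefore given with no p-value, and SDs and ranges describe the spread between cells.

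Translation of an mRNA begins when eIF2 brings the initiator tRNA to the small ribosomal subunit, eIF3 holds that complex together and the eIF4 factors recruit it to the capped end of the mRNA. Elongation factor eEF1A then delivers each further tRNA, the eEF1B subunits recharge eEF1A with GTP, and eEF2 moves the ribosome along. Many of these factors are encoded, like the ribosomal proteins, by TOP mRNAs, which start with a run of pyrimidines and are controlled through mTOR. In adult neural stem cells the change from rest to division is known for a higher output of the translation machinery.

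C libraries were split by their own cell cycle genes, none of which is a translation factor. A C library counted as cycling when the mean log2(TPM + 1) of 16 S phase genes or of 20 G2 and mitosis genes was at least 3, which gave 27 cycling C libraries and left the other C libraries as non-cycling. Of all C libraries, 6 lay within 2.5 to 3.5 of the scale, 2 above and 4 below the limit. The proliferation gene Mki67 reached 1 TPM in 17 of 27 cycling and 9 non-cycling C libraries, and no R or N library passed the limit. Genes at 1 TPM numbered 3861 ± 827 in cycling C, 3704 ± 954 in non-cycling C, 3199 ± 618 in R and 3512 ± 939 in N libraries (SD over libraries). The mean of a neural stem cell marker list was 5.04 ± 1.40 in cycling C and 6.89 ± 1.42 in non-cycling C libraries, and that of an intermediate progenitor list was 3.79 ± 1.87 in cycling C and 1.68 ± 1.11 in non-cycling C libraries. In R libraries the mean of a mature neuron list lay between 5.45 and 7.49. Other lists were also present in R: neural stem cell 4.50 ± 1.10, neuroblast 3.77 ± 1.23 and astrocyte 3.09 ± 1.43 (SD). An oligodendrocyte list reached 4 in 1 R library, and so did an erythroid list in 1. At least 1 of 8 marker lists of other cell types (mean of at least 4) was present in 36 libraries. These were 2 cycling C, 14 non-cycling C, 4 R and 16 N libraries. The astrocyte and neuroblast lists were not among the 8. The astrocyte list reached 4 in 59 non-cycling C and 0 cycling C libraries, with means of 3.81 ± 1.34 and 1.99 ± 0.86 (SD). No pair of libraries was close to identical (highest correlation 0.60), and doublets were not called.

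Across all libraries 1 gene carried much of the signal. Eef1a1, which encodes the main form of eEF1A, took 30.9% of the TPM of all members together. Next came Eif4a2, a cap helicase subunit, with 6.11%, Eif5a, which helps ribosomes through difficult peptide bonds, with 4.88%, Eef1g, an eEF1B subunit, with 3.91%, and Eif1, which guards start codon choice, with 3.54%. Together the members made up 1.53% ± 0.395 of all transcripts in cycling C, 1.08% ± 0.463 in non-cycling C, 1.26% ± 0.179 in R and 1.39% ± 0.623 in N libraries (SD). Without Eef1a1 the share was 0.983% ± 0.233 in cycling C and 0.774% ± 0.307 in non-cycling C libraries. A library held a median of 36 members at 1 TPM in cycling C, 31 in non-cycling C, 32 in R and 30 in N.

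The levels of Eef1a1 ran from 1071 through a median of 5277 to 10671 TPM in cycling C, and from 18.6 through 2535 to 15483 TPM in non-cycling C libraries. R libraries 1 to 4 had 4551, 1989, 4819 and 1439 TPM, and N libraries ran from 254 through 3847 to 19504 TPM. The groups overlapped, and the low values below 100 TPM were found in non-cycling C libraries, where 90.4% (95% interval 83.5 to 95.1) reached 100 TPM. All 27 cycling C, 4 R and 26 N libraries reached that level. Here and below, intervals of shares are exact Clopper-Pearson intervals that cover counting error only.

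**Figure D1:**
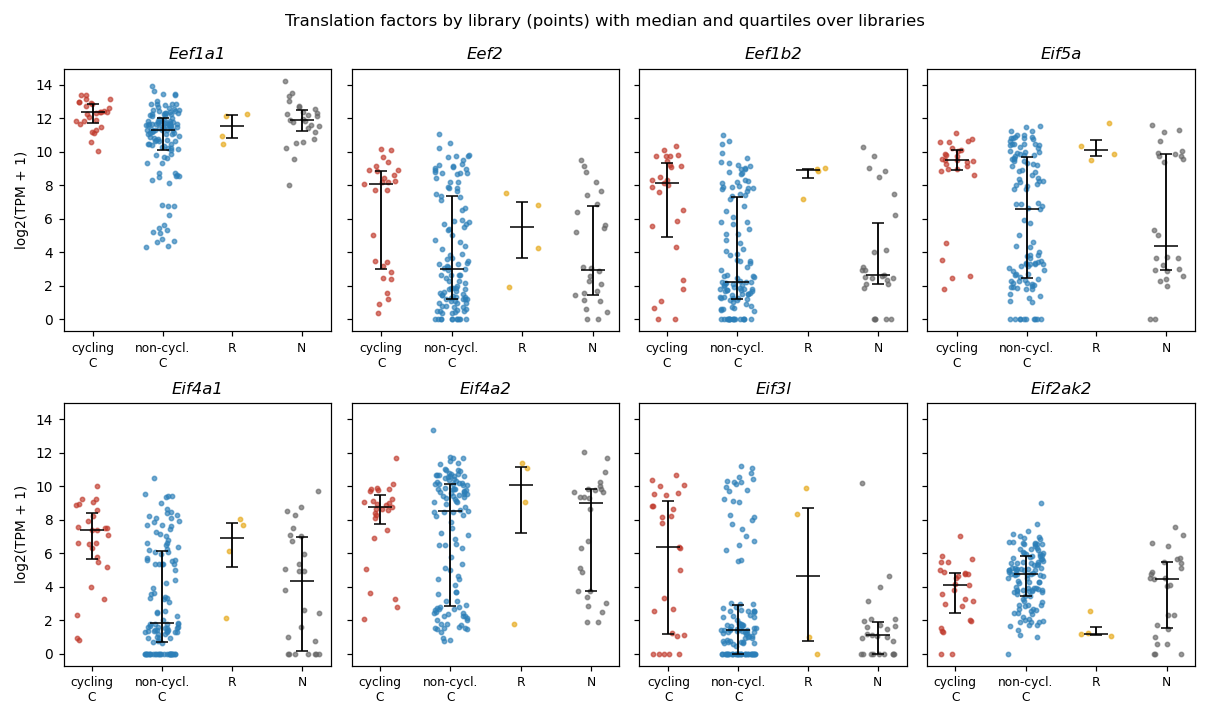
Levels of 8 translation factors as log2(TPM + 1), 1 point per library, in cycling C (27), non-cycling C, R (4) and N (26) libraries, with the median and quartiles in black. Eef1a1 was above 0 in every library, while Eef2, Eef1b2, Eif4a1 and Eif3l ran from 0 to above 1000 TPM in C, and Eif2ak2 in R lay between 1.11 and 4.79 TPM.

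In cycling C libraries the translation factors were, as a list, higher than in non-cycling C libraries. The median difference of mean log2(TPM + 1) over the 67 members was 0.86, against 0.03 over all genes tested. At least 1 log2 unit (2-fold) higher were 30 members (44.8%), against 15.1% of all 12007 genes, and 1 member was at least 1 unit lower (1.49%), against 4.67% of all genes. Above 0 were 55 of the 67. Among members that reached 1 TPM in 25% of libraries, 29 of 48 (60.4%) were higher by 1 unit, against 24.6% of the 5261 genes that passed that stricter filter. The spread between cells was wide: Eif4a1 was the only member whose difference exceeded the SD over non-cycling C libraries.

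That count depends on how low values are weighed. With a pseudocount of 10 in place of 1 it was 16 (23.9%), against 7.36% of all genes. On the log2 ratio of mean TPM 11 members were higher (16.4%, against 15.4% of all genes) and 11 lower (16.4%, against 33.2%), so that on this measure the share of higher members was near that of all genes, while the member median was 0.28 against −0.39 over all genes. Cycling and non-cycling cells also differed in the stem cell, astrocyte and progenitor lists given above. Among C libraries with an intermediate progenitor list mean of at least 3 (18 cycling, 14 non-cycling), the member median was 0.34 against 0.01 over all genes, with 24 higher (35.8%, against 17.8% of all genes) and 4 lower (5.97%, against 9.69%). Among those with a stem cell list mean of at least 5 (12 of them cycling) it was 0.99 against 0.04, with 32 higher (47.8%, against 19.1%).

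**Figure D2:**
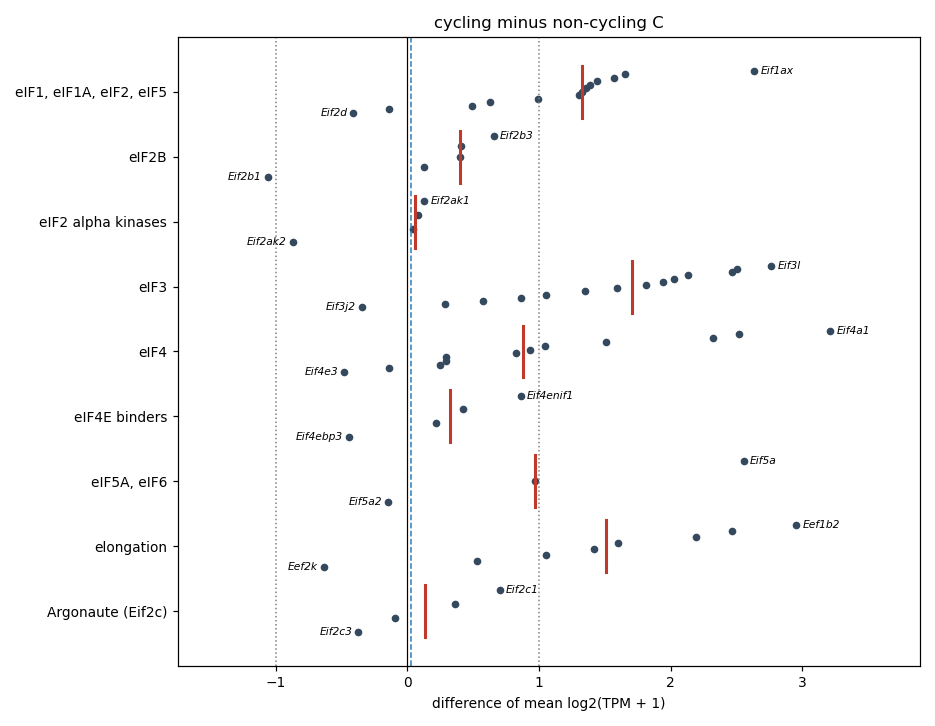
Differences of mean log2(TPM + 1), cycling minus non-cycling C, for the 67 members by role. Each point is a gene, red bars are the medians of the roles, the dashed line is the median of all genes and dotted lines mark differences of 1 unit. The role medians were 1.70 for the eIF3 subunits, 1.51 for the Eef genes and 0.06 for the eIF2 alpha kinases.

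Among the factors of start codon recognition and the eIF2 complex, 8 of 13 were at least 1 unit higher in cycling C libraries (median 1.33). That share was 61.5%, against 15.1% of all genes. Eif1ax, the X-linked gene of eIF1A, which works with eIF1 in scanning, had the highest difference, 2.64, which was 0.76 on the log2 ratio of mean TPM. Its level ran from 0 through a median of 88.6 to 2147 TPM in cycling C, and from 0 through 1.26 to 3709 TPM in non-cycling C libraries, so the ranges overlapped fully. It reached 100 TPM in 13 of 27 cycling (48.1%, 28.7 to 68.1) and 28 non-cycling C libraries (24.3%, 16.8 to 33.2). The genes of the alpha and beta subunits of eIF2, Eif2s1 and Eif2s2, were higher by 1.36 and 1.39. Eif1, among the most abundant members, differed by 0.49, with medians of 202 TPM in cycling and 224 TPM in non-cycling C libraries.

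eIF2B exchanges GDP for GTP on eIF2. None of its 5 subunit genes was 1 unit higher, 4 of the 5 lay above 0 and their median was 0.40. Eif2b1, its alpha subunit, was the only member lower by 1 unit in cycling C libraries (−1.06). That difference was smaller than 1 unit in 7 of 17 alternatives, −0.33 at the least, and −2.51 on the log2 ratio of mean TPM. Eif2b1 reached 1 TPM in 14 of 27 cycling (51.9%, 31.9 to 71.3) and 82 non-cycling C libraries (71.3%, 62.1 to 79.4), and its medians were 1.09 TPM in cycling and 2.59 TPM in non-cycling C libraries. Of the 4 kinases that phosphorylate eIF2 alpha and thereby slow initiation, none passed 1 unit either way. Eif2ak2, the kinase PKR that senses double-stranded RNA, differed by −0.87. It ran from 0 through 15.9 to 129.3 TPM in cycling C and from 0 through 26.1 to 517 TPM in non-cycling C libraries, with overlap.

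Of the 14 measured eIF3 genes, 10 (71.4%, against 15.1% of all genes) were at least 1 unit higher in cycling C libraries. The median of the 14 was 1.70 and none was lower by 1 unit. The leading ones were Eif3l (2.77) and Eif3g (2.47), each the gene of 1 subunit of the complex, with Eif3e between them. With Mki67 in place of the cycle lists, Eif3l differed by 0.56. Eif3l ran from 0 through 82.7 to 1598 TPM in cycling C and from 0 through 1.64 to 2344 TPM in non-cycling C libraries. It reached 100 TPM in 13 of 27 cycling (48.1%, 28.7 to 68.1) and 22 non-cycling C libraries (19.1%, 12.4 to 27.5). Eif3e reached 100 TPM in 14 of 27 cycling (51.9%, 31.9 to 71.3) and 22 non-cycling C libraries (19.1%, 12.4 to 27.5). The sizes differed within the complex: Eif3b differed by 0.58, and the near-identical copies Eif3j1 and Eif3j2 by 0.28 and −0.35.

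Of the 12 eIF4 genes 5 (41.7%, against 15.1% of all genes) were at least 1 unit higher in cycling C libraries (median 0.88). Eif4a1, a helicase that unwinds the mRNA's leader, had the highest difference of any member, 3.21. It ran from 0.77 through 163 to 1048 TPM in cycling C and from 0 through 2.51 to 1454 TPM in non-cycling C libraries. It reached 100 TPM in 15 of 27 cycling (55.6%, 35.3 to 74.5) and 23 non-cycling C libraries (20%, 13.1 to 28.5). The SD of its log2 level over non-cycling C libraries was 3.15, just under the difference, and on the log2 ratio of mean TPM the difference was 1.39.

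Its close relative Eif4a2 was the more abundant gene in most cells and differed by 0.93, with medians of 431 TPM in cycling and 359 TPM in non-cycling C libraries. Eif4a1 exceeded Eif4a2 in 7 of 27 cycling C, 23 non-cycling C, 1 of 4 R and 5 of 26 N libraries. The mean log2 ratio of Eif4a1 to Eif4a2 was −1.37 in cycling and −3.66 in non-cycling C libraries, with SDs of 3.35 and 4.65. These paralogs share sequence, and the authors' estimator divides shared reads between such genes, so each level is uncertain.

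Eif4e, whose protein binds the cap itself, was higher by 2.33 in cycling C libraries, with medians of 100.5 TPM in cycling and 1.72 TPM in non-cycling C libraries, and by 0.47 on the log2 ratio of mean TPM. The cap-binding relative Eif4e3 differed by −0.48. Among the genes named eIF4G, Eif4g2 was detected almost everywhere and differed by 1.05, while Eif4g1 differed by 0.83. The difference of Eif4g2 was below 1 unit in 6 of 17 alternatives, 0.14 at the least. Eif4g2 exceeded Eif4g1 in 96.3% of cycling and 93.9% of non-cycling C libraries. Eif4ebp1, Eif4ebp2 and Eif4ebp3, whose proteins block initiation when mTOR is inactive, and Eif4enif1, the eIF4E transporter, gave no difference of 1 unit. Eif4ebp1 reached 1 TPM in 5 of 27 cycling and 11 non-cycling C libraries, and Eif4ebp2 in 2 cycling and 7 non-cycling C libraries.

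Eif5a, whose protein carries the modified amino acid hypusine, was higher by 2.56 in cycling C libraries. It ran from 2.56 through 714 to 2192 TPM in cycling C and from 0 through 93.1 to 3023 TPM in non-cycling C libraries. It reached 100 TPM in 22 of 27 cycling (81.5%, 61.9 to 93.7) and 56 non-cycling C libraries (48.7%, 39.3 to 58.2), and on the log2 ratio of mean TPM it differed by 0.66. Its relative Eif5a2 was at 1 TPM in 2 of 27 cycling and 9 non-cycling C libraries. Eif6, which keeps the ribosomal subunits apart, differed by 0.97.

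Among the 8 Eef genes 6 (75%, against 15.1% of all genes) were at least 1 unit higher in cycling C libraries (median 1.51). These were Eef1b2, Eef1g, Eef2, Eef1a1, Eef1a2 and Eef1e1. Eef1e1 encodes a scaffold of the tRNA synthetase complex, and the levels of Eef1a2 may include reads shared with Eef1a1, which was not tested. The 8 also include Eef2k, the kinase of eEF2. Eef1b2, which encodes the nucleotide exchange subunit of eEF1B, was higher by 2.96. It ran from 0 through 278 to 1310 TPM in cycling C and from 0 through 3.74 to 2060 TPM in non-cycling C libraries. It reached 100 TPM in 17 of 27 cycling (63%, 42.4 to 80.6) and 31 non-cycling C libraries (27%, 19.1 to 36). The ranges overlapped, as the plot of levels by library shows.

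Eef1g was higher by 2.46 (0.64 on the log2 ratio of mean TPM), with medians of 503 TPM in cycling and 11.3 TPM in non-cycling C libraries. Eef2 was higher by 2.19 (0.93 on that ratio) and ran from 0.29 through 272 to 1158 TPM in cycling C and from 0 through 7.18 to 2162 TPM in non-cycling C libraries. Eef1a1 was higher by 1.60, with a mean log2(TPM + 1) of 12.20 ± 0.85 in cycling C and 10.59 ± 2.28 in non-cycling C libraries (SD). Within the C libraries of high progenitor list given above, the difference of Eef1a1 was 0.34. Eef2k, the kinase that inactivates eEF2, went the other way (−0.63) and reached 1 TPM in 6 of 27 cycling (22.2%, 8.62 to 42.3) and 52 non-cycling C libraries (45.2%, 35.9 to 54.8). The 4 Eif2c genes that the symbol rule takes in encode Argonaute proteins of small RNA silencing, not translation factors, and none differed by 1 unit.

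The 9 members known as TOP mRNAs were higher in cycling C libraries by a median of 2.03, with 7 of 9 past 1 unit (77.8%). The 54 other factors were higher by a median of 0.86, with 23 of 54 (42.6%). The cytosolic ribosomal protein genes, the main TOP class, had a median of 2.05 with 76 of 80 past 1 unit (95%). Of all genes 15.1% were higher by 1 unit. The TOP members and the other factors also differed in detection. The least detected TOP member, Eif3f, reached 1 TPM in 46.5% of libraries, and the least detected other factor, Eif4ebp2, in 5.23%. With the 25% filter 60.4% of members were higher by 1 unit, against 24.6% of the genes passing it. The part of detection in the difference between these lists was not tested. Of the promoters and start sites annotated by RefSeq on GRCm38.p6, a later build than that of the expression table, 49 members matched by symbol, 5 of them TOP mRNAs. A run of at least 7 C or T letters on the gene's strand, from 20 bases before to 25 bases from the annotated start, was present in 17 of 49 members (34.7%), 4 of 5 TOP members and 29.6% of 17492 protein-coding genes. Members with such a run had a median difference of 1.42 and those without one 0.88. The letters CACGTG, the same on both strands and the core bound by MYC, were found in the 300 bases around the start in 12 of 49 members (24.5%) and in 8.91% of protein-coding genes. The 12 had a median difference of 1.77 and the other 37 one of 0.86. A gene counted when the window of any of its annotated starts matched. The protein-coding genes were not limited to those that passed the expression filter, as the members were, so the shares are of unlike sets. A match describes these letters in these windows only.

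Shown here are the 45 bases around the annotated start of 5 members that were at least 1 unit higher, chosen to show long and short pyrimidine runs. They read 5′ to 3′ on the gene's strand, the annotated start is position 21, and capitals mark the longest run of C and T.
Eef1a1, chr9:78481700-78481744, minus strand: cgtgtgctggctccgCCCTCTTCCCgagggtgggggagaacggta
Eef2, chr10:81176611-81176655, plus strand: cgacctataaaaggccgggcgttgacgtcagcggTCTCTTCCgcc
Eif3f, chr7:108934395-108934439, plus strand: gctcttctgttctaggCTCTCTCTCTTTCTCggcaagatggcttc
Eef1b2, chr1:63176811-63176855, plus strand: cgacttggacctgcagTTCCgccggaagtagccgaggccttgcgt
Eif4a1, chr11:69672399-69672443, minus strand: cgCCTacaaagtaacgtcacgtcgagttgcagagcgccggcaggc
The runs were 10 letters in Eef1a1, 8 in Eef2 and 15 in Eif3f. Counted from the annotated start they began at −5, 14 and −4, so the Eef2 run was not at the start. Eef1b2 and Eif4a1, the members with the highest differences, had 4 and 3 in these windows.

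Genes of the wider pathway were counted in the same way between cycling and non-cycling C libraries, against the 15.1% of all genes that were higher by 1 unit; differences between the lists were not tested. All 7 nascent chain and TOP partner genes were higher, led by the histone chaperone Nap1l1 (3.61), followed by Btf3 (2.67), which contacts emerging peptides. Of 12 termination, recycling and poly(A) genes 3 were higher (25%), with Pabpc1, the poly(A) binding protein, at 2.37. Of 20 cytosolic tRNA synthetases 4 were higher (20%, near the share of all genes), with Kars, the lysine enzyme, at 2.46. Of 5 measured genes of the eIF2 stress response 3 were higher, among them Atf4 (1.57), a transcription factor of that response, and Asns (1.36), its target. Among 7 hypusine and diphthamide genes Odc1, which feeds the polyamine route to hypusine, was higher by 2.22. None of 15 mTOR and MNK genes was higher by 1 unit, and Pdcd4, which inhibits eIF4A, was lower (−1.04). None of 9 mitochondrial translation factors passed 1 unit.

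Within C the mean level of the translation factors followed that of the ribosomal protein genes, with a Spearman rho of 0.69 over all C libraries. It was 0.76 over the 27 cycling and 0.53 over the non-cycling C libraries. These are descriptions over cells that share preparation: the member mean also had a rho of 0.53 with the number of genes detected, while the ribosomal mean had 0.19. Single members followed the ribosomal mean less closely. Eef1a1 had the highest rho, 0.48, the median was 0.29 over the 9 TOP members and 0.12 over the other factors, against 0.04 over all genes, and Eif2ak2 had the lowest, −0.29. Positive values were found for 52 of 67 members.

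**Figure D3:**
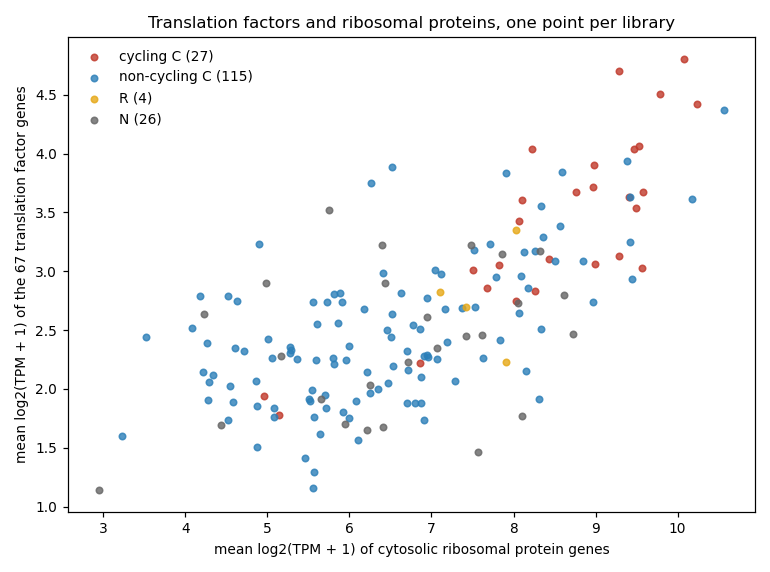
Mean log2(TPM + 1) of the 67 translation factor genes against that of 80 cytosolic ribosomal protein genes, 1 point per library. Most cycling C libraries lay to the upper right, with a mean of 3.43 over members against 2.47 in non-cycling C libraries, and R and N libraries lay among the non-cycling C libraries.

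Between C and N libraries the members differed little as a list. The median difference was 0.27, against 0.17 over all genes, with 6 members at least 1 unit higher in C (8.96%, against 9.98% of all genes) and 1 lower (1.49%, against 4.19%). Those counts are near or below the share of all genes. The 6 genes were Eif1b (1.80), Eif3l (1.75), Eif2s1 (1.35), Eif1ad (1.32), Eif2s3x (1.22) and Eif2s3y (1.09), and Eif2s3x and Eif2s3y each lay below 1 unit in 3 of 12 alternatives. Of the 13 measured factors of start codon recognition and the eIF2 complex, 10 lay above 0, with a median of 0.47 and 5 past 1 unit (38.5%). Below 0 were Eif1a (−0.56), Eif2d (−0.42) and Eif2s2 (−0.41). This role was singled out after its values were seen. N libraries include other cell types by their marker lists, and without the libraries with such a list (10 N left) 11 members were higher (16.4%, against 11.7% of all genes) and 8 lower (11.9%, against 9.21%). With a pseudocount of 10 the count of higher members was 2 (2.99%, against 3.73%). On the log2 ratio of mean TPM 12 were higher (17.9%, against 35.5%) and 11 lower (16.4%, against 18%).

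Eif1b, a second gene of an eIF1 protein, ran from 0 through 6.80 to 3105 TPM in C and from 0 through 0.925 to 2589 TPM in N libraries. It reached 100 TPM in 54 C (38%, 30 to 46.5) and 5 of 26 N libraries (19.2%, 6.55 to 39.4). Eif3l reached 100 TPM in 35 C (24.6%, 17.8 to 32.6) and 1 of 26 N libraries (3.85%, 0.0973 to 19.6). Lower in C were Eif4b, an eIF4A cofactor (−1.23), and Eef1a1 (−0.88, under 1 unit). Eif4b ran from 0 through 0.83 to 1887 TPM in C and from 0 through 1.42 to 774 TPM in N libraries, and reached 100 TPM in 21 C (14.8%, 9.39 to 21.7) and 8 of 26 N libraries (30.8%, 14.3 to 51.8). Without the 27 cycling C libraries the member median was 0.06, against 0.13 over all genes. Then 5 members were higher by 1 unit (7.46%, against 9.05% of all genes) and 3 lower (4.48%, against 4.76%).

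The 4 R libraries, whose mature neuron lists were high, differed from N in many genes: 23.8% of all genes were at least 1 unit higher and 17.5% lower. Among members 22 were higher (32.8%) and 11 lower (16.4%), with a median of −0.14 against −0.18 over all genes. On the log2 ratio of mean TPM 10 were higher (14.9%, against 19.3% of all genes) and 34 lower (50.7%, against 49.8%), near the shares of all genes. The mature neuron list, at 5.45 to 7.49 in R, lay between 0.0275 and 3.48 in N libraries, and its part in these differences was not tested. Single members stood far from the N median in all 4 cells. Eef1b2 was at 502, 146, 455 and 525 TPM in R libraries 1 to 4, against 0 through 5.19 to 1267 TPM in N libraries, a difference of 4.72. Eif5a was at 919, 3334, 737 and 1297 TPM in R, against 0 through 22.3 to 3076 TPM in N libraries, a difference of 4.37. All R values of both genes lay above the N median, and R library 2 had more Eif5a than any N library.

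Other high differences rested on some of the 4 cells. Eif1b (4.65) was at 1516, 1074, 437 and 0 TPM in R libraries 1 to 4, and Eif4e (3.72) at 533, 447, 259 and 0 TPM. Eif3l (3.24) was at 951, 0, 321 and 0.99 TPM. Library 4 was thus listed at 0 for Eif1b and Eif4e, which the other 3 expressed.

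On the low side, the kinase gene Eif2ak2 was at 1.38, 4.79, 1.24 and 1.11 TPM in R, against 0 through 21.2 to 186 TPM in N libraries (−2.19). It was detected in all 4 R cells but below the median of every other group. Eif2s2 (−2.20) was at 50.1, 0, 17.7 and 0 TPM in R, against a median of 44.7 TPM in N libraries, and among libraries with at least 3000 genes (2 R) its difference was 0.14. Eif2b1 reached 0.67 TPM in R library 3 and was listed at 0 in the other 3, and Eif3f was at 1.29 TPM in R library 2 and listed at 0 in the other 3. Several members were listed at 0 in all 4 R libraries, among them Eef1e1 (−1.62), Eif3j1 (−1.39) and Eif4enif1 (−1.05).

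**Figure D4:**
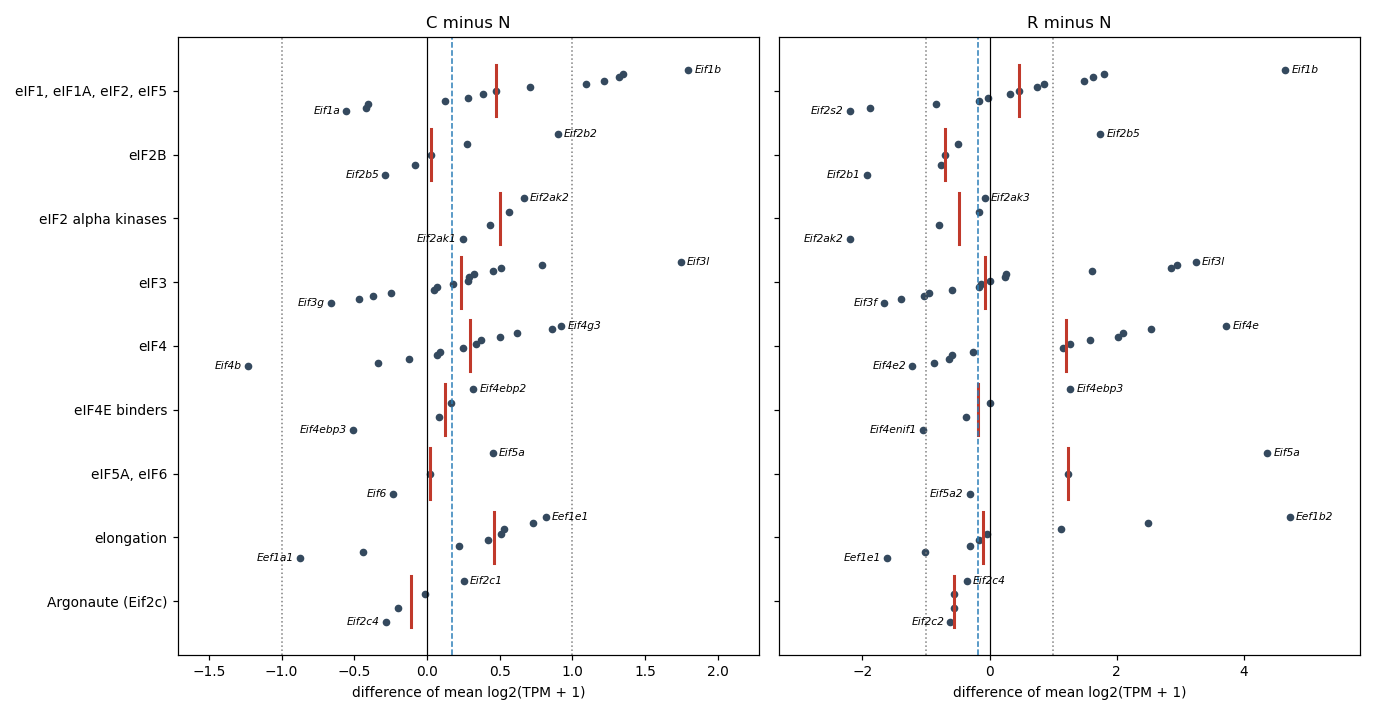
Differences of mean log2(TPM + 1) for the 67 members by role, C minus N on the left and R minus N on the right, drawn as in the plot of cycling cells and with different x axes. Differences for R spanned −2.20 to 4.72 and those for C −1.23 to 1.80, and R has 4 libraries.

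A pair of eEF1A genes exists: Eef1a1, used by most cells, and Eef1a2, the form of mature neurons and muscle. Eef1a2 was at a median of 0.149% of the Eef1a1 level over all 172 libraries, and in R libraries, with high neuronal markers, at 0.135 to 0.228%. Its level tracked that of Eef1a1, with a rho of 0.71 over C libraries, against a median of 0.04 over 2211 pairs of members. No other member was as close to Eef1a1: Eef1g came next with 0.30 and Eif2c1 with 0.27. For Eef1a2 the next were Eif4h (0.35) and Eif3h (0.28). The estimator assigns reads that fit both paralogs to either, and the part of such reads in the low Eef1a2 values was not tested.

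Eef1a2 exceeded 1% of Eef1a1 in 7 libraries. The highest was C17, at 48.1%, with 280 TPM of Eef1a1 and 134.6 TPM of Eef1a2 and a mature neuron list mean of 0. N13 followed, at 15.8%, with 1539 and 243 TPM and a list mean of 3.13. C103 and C137 were at 4.42% and 4.06%, with list means of 3.18 and 6.42.

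**Figure D5:**
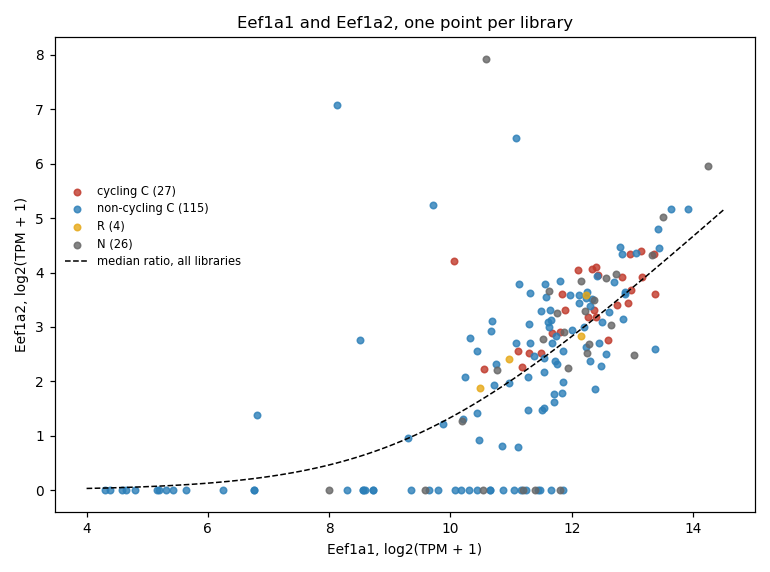
Eef1a2 against Eef1a1 as log2(TPM + 1), 1 point per library, with the dashed curve at the median ratio of 0.149%. Most libraries with Eef1a2 lay along the curve, a row of libraries had Eef1a2 listed at 0, and few lay far above, with C17 at 48.1%.

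The gamma subunit of eIF2, which holds the initiator tRNA, is encoded on both sex chromosomes, by Eif2s3x and Eif2s3y. Y-linked genes (Eif2s3y, Ddx3y, Uty or Kdm5d) reached 1 TPM in 82.4% of C, 3 of 4 R and 18 of 26 N libraries. Eif2s3y itself reached it in 79 C, 1 of 4 R and 13 of 26 N libraries, and Eif2s3x in 62 C, 1 of 4 R and 7 of 26 N libraries. Both copies were detected in 41 of 172 libraries, the Y copy alone in 52, the X copy alone in 29 and neither in 50. Xist, which marks an inactive X chromosome, reached 1 TPM in 5 libraries, all 5 with a Y gene.

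Eif2s3x differed by 1.44 between cycling and non-cycling C libraries, with medians of 2.85 TPM in cycling and 0.41 TPM in non-cycling cells. Eif2s3y differed by −0.14, and by either sign under the alternatives, with medians of 1.62 TPM in cycling and 1.14 TPM in non-cycling cells. Their starts are shown so that the X and Y copies can be read side by side, written as for the sequences above.
Eif2s3x, chrX:94212627-94212671, minus strand: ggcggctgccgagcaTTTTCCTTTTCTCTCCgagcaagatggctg
Eif2s3y, chrY:1010575-1010619, plus strand: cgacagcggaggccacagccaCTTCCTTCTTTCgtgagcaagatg
Both windows hold a run of C and T near the start, 16 letters in Eif2s3x and 12 in Eif2s3y.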

How the data were processed

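The authors deposited a table of TPM per gene and single-cell library, for which the submitters' processing notes name RSEM and mm9; the library kit was NuGEN Ultralow V2, per the labels' protocols. Version, aligner and annotation: not given in the sources used here. RSEM divides reads that fit several genes, so paralogs and genes with pseudogenes (Eef1a1, Eif4a1, Eif1, Eif3j1 and others) are uncertain. TPM keeps no depth. Of all values 78.5% were listed at 0, Gapdh in 2 libraries, so a 0 is only said to be listed.

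Of 172 expression columns, for 173 labelled samples, 171 match a single title. Column C27 fits 2 titles and was used as a C library. Values were analysed as log2(TPM + 1) with Python 3.11.15, pandas 2.3.3 and SciPy 1.17.1. The difference of group means was computed for all 12007 genes, with 1 unit as the limit; no test was made, since no animal is named. Scripts were tested on simulated data. Alternatives changed the pseudocount (0.1, 10), the filter, the scaling, the libraries and the cycling limit (2, 4). Named genes were 20 set members plus the 5 highest and 5 lowest of each comparison, and of each of 7 pathway lists the gene furthest from 0; other genes were chosen after their values were seen. Members and lists were chosen with earlier results of these data known.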

Additional observations from a re-analysis of the deposited data

Results flagged for a closer look

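In R, with 4 libraries, 11 of the 33 named members had 1 library far from the other 3. The measure was the gap to its neighbour over the whole range of log2(TPM + 1), while the values below are TPM. Chance flags about 1 in 20 groups of normally distributed values, a rate that does not hold for values with many zeros. For Eif2s3y, Eif3f and Eif4e3 the other 3 libraries were listed at 0, which puts this measure at its highest by construction. Eif2b1 and Eif5a2, also at 0 in 3 libraries and at 0.67 and 0.11 TPM in R library 3, were not flagged. R library 4 was listed at 0 TPM for Eif1b and at 0 TPM for Eif4e, where the other 3 lay above 250 TPM. It was at 1033.24 TPM for Eif2s3x and 104.08 TPM for Eif1ad, where the others lay below 1 TPM. R library 2 was at 146.38 TPM for Eef1b2, the lowest of the 4, and the highest for Eif2ak2 (4.79 TPM), Eif4ebp3 (426.5 TPM), Eif2s3y (1.04 TPM) and Eif3f (1.29 TPM). R library 3 was at 320.22 TPM for Eif3e, and R library 1 at 4.4 TPM for Eif4e3.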

How the results depend on the processing

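Cycling against non-cycling C kept the sign of the member median in all 17 alternatives (0.28 to 1.34). The count of higher members moved to 16 with a pseudocount of 10 (23.9%, against 7.36% of all genes). On the ratio of mean TPM it moved to 11 (16.4%, against 15.4%). The count of lower members, 1, became 3 with a pseudocount of 0.1 (4.48%, against 9.92% of all genes) and 0 with 10 (against 1.83%). It was 11 on mean TPM (16.4%, against 33.2%), 2 with the stem list (2.99%, against 5.60%) and 4 with the progenitor list (5.97%, against 9.69%). Without other cell types, at limits of 2 and of 4, and with Mki67 it was 0, against 3.14% to 4.51% of all genes. For C against N the higher count, 6, became 13 with a pseudocount of 0.1 (19.4%, against 20.7% of all genes). It became 2 with a pseudocount of 10 (2.99%, against 3.73%) and 12 on mean TPM (17.9%, against 35.5%). Without other cell types it was 11 (16.4%, against 11.7%), and of these shares only this lay above that of all genes. The lower count, 1, became 0 (pseudocount 10), 2 (rescaled, or at least 3000 genes) and 11 (mean TPM). It was 8 without other cell types and 3 without cycling cells. Of these lower shares only that without other cell types (11.9%, against 9.21%) lay above the share of all genes. Rescaling moved the median of all genes in C against N from 0.17 to 0.06 and that of members to 0.02, the largest shift of all genes by a scaling. For R against N the member median of −0.14 was 0.12 with the 25% filter and −1.11 on mean TPM. On mean TPM 10 were higher (14.9%, against 19.3% of all genes) and 34 lower (50.7%, against 49.8%). With a pseudocount of 10, 3 were lower (4.48%, against 5.06%). Leaving out each R library gave medians of −0.28 to −0.05. Higher were then 19 to 23 (28.4% to 34.3%, against 21% to 26.9% of all genes). Lower were 10 to 16 (14.9% to 23.9%, against 18.1% to 21.9%).

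Signs turned for 4 genes in R against N on mean TPM: Eef1g −1.71, Eif4g2 −0.47, Eef2 −0.42 and Eif6 −1.75. With at least 3000 genes (2 R left) Eif2s2 was 0.14, Eif4b −0.82, Eif2s3x −0.98, Eif1ad −0.041 and Eif4ebp3 −1.21. Leaving out 1 R library gave Eif2s1 −0.50 (without library 1) to 2.40, Eif4ebp3 −0.85 (without 2) to 2.06, and, without library 4, Eif2s3x −0.68 and Eif1ad −0.033, up to 2.66 and 2.21. Eif3f in cycling C was −0.048 within high progenitor lists. The rho with ribosomal genes was 0.53 in non-cycling C. The cause of these changes was not tested. Several alternatives were chosen after seeing the data (the stem, progenitor, Argonaute and cyan protein limits, C without cycling cells, and all for rho). No paired analysis was possible because the numbers in the titles name cells and pair no libraries across classes. TPM limits any statement on depth.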
